A study of Mus musculus with 20 samples.

Results

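Chromatin regions that differed between week 4 and day 7 after myocardial infarction were compared in mouse cardiac fibroblasts of the Tcf21 lineage by ATAC-seq, which reads out open DNA through the cuts a transposase makes in it. Regions were formed by merging the overlapping peaks of 4 deposited peak lists, 2 from week 4 and 2 from day 7. A region was called gained where both week 4 lists and neither day 7 list held a peak, and lost where both day 7 lists and neither week 4 list held one. Of 114907 merged regions, 1579 were gained (1.37%) and 10453 were lost (9.10%), so that 12032 regions made up the set described here, while 47491 regions (41.3%) held a peak in all 4 lists and are called kept. All mice carried a tamoxifen-inducible MerCreMer, given tamoxifen at 75 mg/kg/day for 5 days, and eGFP-positive cells were sorted from digested hearts at week 4 after infarction, at day 7 after infarction, and, for the groups used as context, from uninjured hearts and at day 3 and week 2. The series holds 10 ATAC-seq libraries and the same number of RNA-seq libraries, 2 of each per group. Mouse ages, the number of hearts per library and the exact transgenes were not given in the labels, and the lineage mark covers whatever cells the Cre driver had recombined.

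The sorted cells carried the defining fibroblast genes at both times. The starts of Tcf21, Pdgfra, Gsn and Col3a1 lay in peaks kept in all 4 lists, and RNA of Pdgfra, the PDGF receptor of fibroblasts, was 380 and 328 CPM, library-scaled counts, at week 4, against 254 and 147 CPM at day 7. Decorin (Dcn) RNA was 15594 and 14182 CPM at week 4, against 7865 and 6872 CPM at day 7. The week 4 lists held 69238 and 70195 peaks on the chromosomes used, fewer than the 93724 and 88332 peaks of the day 7 lists, and the sequencing depth behind the lists is unknown. By the Jaccard index, the shared length of 2 lists over their joint length, the week 4 pair scored 0.651 and the day 7 pair 0.614, against 0.562 to 0.593 between the times. Library code letters set day 7 replicate 1 (A) apart from the other 3 lists (B), and what the letter stands for is not given. RNA totals were 16397211 to 21043997 expected counts over the 10 RNA libraries. The Y-linked genes Ddx3y, Eif2s3y, Kdm5d and Uty summed to 0 and 319.9 CPM in the week 4 RNA libraries and to 0.25 and 255.9 CPM in the day 7 RNA libraries, so the libraries of each pair came from different animals or pools. At both times replicate 1 had almost no Y-linked RNA and replicate 2 carried it. The labels do not otherwise say that replicates were separate animals.

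After an infarct, resident fibroblasts divide, become contractile myofibroblasts that lay down collagen, and later settle into a mature scar. Accessible regions include promoters, which lie at transcription starts, and enhancers, which lie within or between genes and vary more between cell states. AP-1, a dimer of Fos and Jun family proteins, RUNX factors and the myeloid ETS factor PU.1 each bind short recognisable DNA words.

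Only 22 of the 32817 distinct start windows in the RefSeq promoter table (build GRCm38.p6) lay in gained regions and 507 in lost regions. The promoter of Mmp3, a matrix metalloproteinase that cleaves stromal matrix, is shown as a gained start of a gene with measurable RNA at both times. Tmem255b, Homer1, Plekhb1 and Ahsg were other such genes. The promoters of C1qc, a complement subunit, and Laptm5, a lysosomal membrane protein of blood cells, are shown as lost starts of genes whose RNA fell, although neither was lost with equal peak numbers. For Erg, an endothelial ETS factor nearest to 4 lost regions, the lost one of its 3 starts is shown, while another of them lay in a kept peak with a −log10 q of 126 and 92.8 at week 4, against 87.1 and 92.0 at day 7. Each runs 5′ to 3′ from 250 bases before to 50 bases after the start, and capitals mark matches to TGANTCA (AP-1), TGTGGT (RUNX) or GAGGAAG (PU.1) on either strand.
Mmp3, chr9:7445572-7445871, plus strand: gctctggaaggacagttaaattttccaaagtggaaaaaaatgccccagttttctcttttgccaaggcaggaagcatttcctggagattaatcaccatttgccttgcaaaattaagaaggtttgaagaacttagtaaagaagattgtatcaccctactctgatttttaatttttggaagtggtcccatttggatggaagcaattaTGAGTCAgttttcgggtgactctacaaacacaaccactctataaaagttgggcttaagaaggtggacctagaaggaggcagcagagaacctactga
C1qc, chr4:136892865-136893164, minus strand: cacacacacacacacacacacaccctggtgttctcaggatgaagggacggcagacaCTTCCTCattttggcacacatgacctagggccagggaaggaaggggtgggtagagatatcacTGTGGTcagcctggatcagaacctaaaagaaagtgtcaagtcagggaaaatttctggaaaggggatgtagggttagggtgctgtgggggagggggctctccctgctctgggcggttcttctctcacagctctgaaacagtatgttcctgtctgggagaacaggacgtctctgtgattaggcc
Laptm5, chr4:130913066-130913365, plus strand: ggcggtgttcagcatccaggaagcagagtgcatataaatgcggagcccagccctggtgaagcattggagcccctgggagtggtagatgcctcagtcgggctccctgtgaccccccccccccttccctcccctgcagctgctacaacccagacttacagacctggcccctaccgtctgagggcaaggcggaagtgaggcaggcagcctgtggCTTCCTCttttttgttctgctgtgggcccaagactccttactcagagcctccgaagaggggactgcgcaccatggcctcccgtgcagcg
Erg, chr16:95459299-95459598, minus strand: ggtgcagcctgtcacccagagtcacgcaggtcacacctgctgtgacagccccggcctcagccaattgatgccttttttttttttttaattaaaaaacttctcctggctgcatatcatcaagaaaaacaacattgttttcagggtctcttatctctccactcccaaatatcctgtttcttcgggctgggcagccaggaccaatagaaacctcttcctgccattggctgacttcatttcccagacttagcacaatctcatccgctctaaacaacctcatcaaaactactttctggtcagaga
Mmp3 held an AP-1 match beginning 46 bases before its start, and was the only gained window with an AP-1 word. That is 4.55% of the 22 gained windows, against 12.03% of lost and 7.81% of all windows. C1qc held a PU.1 match 194 bases and a RUNX match 132 bases before its start, Laptm5 a PU.1 match 39 bases before its start, and Erg none of the 3. The lost start windows of Ptprc, whose RNA also fell, and of Grem1 held none of the 3 either and are not shown. Over all lost windows, 21.1% held a PU.1 word, against 13.6% of all windows.

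Far more regions were lost than gained, but how many more depended on the lists' lengths. The deposited lists gave 6.62 lost regions per gained region. When every list was cut to its 69238 strongest peaks, 3545 regions were gained (3.77% of 94015) and 5009 were lost (5.33%), or 1.41 lost per gained. Of the regions gained as deposited, 97.2% were also gained with equal numbers, and they made up 43.3% of the equal-number gained regions. Of the regions lost as deposited, 47.5% were also lost with equal numbers, and they made up 99.0% of the equal-number lost regions. With 2 libraries a group no exact test over libraries can reach 0.05, since its smallest two-sided p is 0.333.

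**Figure D1:**
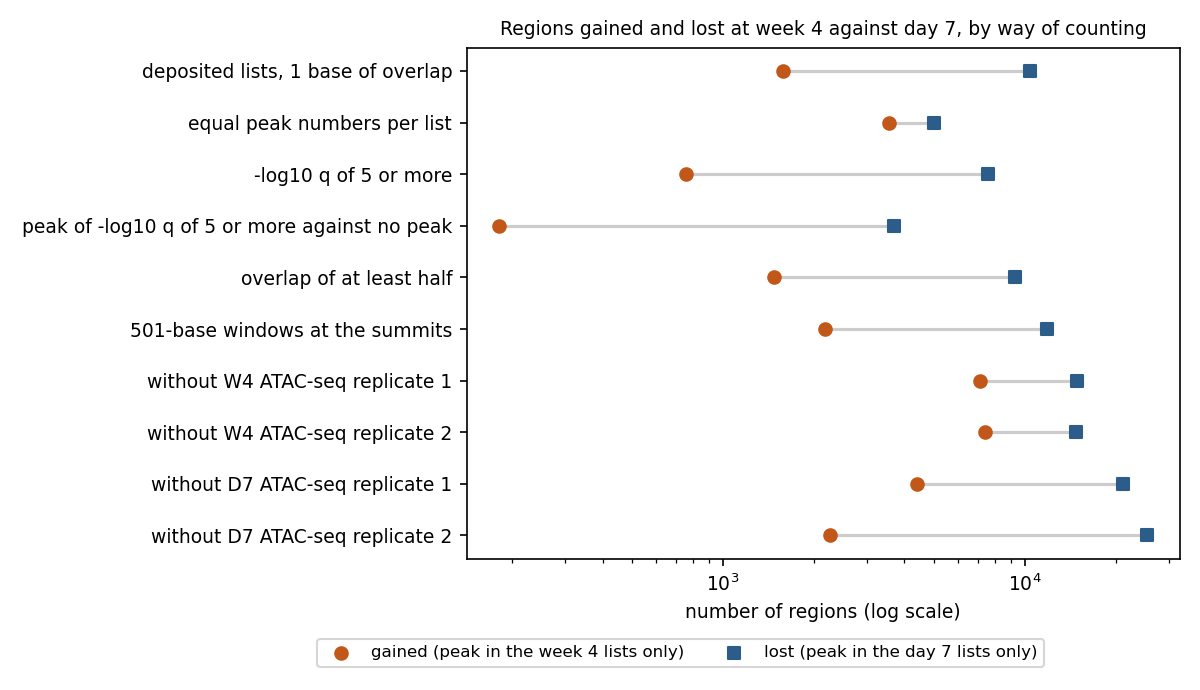
Numbers of regions gained at week 4 (circles) and lost at week 4 against day 7 (squares) under each way of counting, on a log axis. Lost regions outnumbered gained ones in all 10 settings, with the smallest gap at equal peak numbers (3545 gained, 5009 lost), and leaving out any list raised both counts, since presence or absence in 1 list then sufficed for that time.

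Regions that differed between the times were weak peaks within their lists, the gained ones more so. The median −log10 q of gained peaks was 4.13 and 3.87 in the week 4 lists, whose overall medians were 10.8 and 10.0. That of lost peaks was 5.09 and 4.44 in the day 7 lists, whose overall medians were 9.94 and 9.02. A −log10 q of 5 or more was reached by 28.4% and 24.1% of gained peaks and by 56.6% and 48.5% of lost peaks. Regardless of the other time, 26171 regions held a peak in exactly 1 week 4 list and 35290 in exactly 1 day 7 list.

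The 6 libraries that the rule did not use set the regions apart by time, but their lists differed in length. The day 3 lists held 105695 and 107798 peaks, the uninjured lists 63901 and 71909, and the week 2 lists 77947 and 79702. These lists were not cut to equal numbers, and the part of their length in the shares was not tested. A peak in both uninjured lists was held by 33.3% of gained and 14.1% of lost regions, against 46.4% of all merged regions. A peak in both day 3 lists was held by 37.0% of gained and 75.5% of lost regions, against 68.0% of all. At week 2 the shares lay close together, at 29.3% of gained and 27.2% of lost regions, against 52.1% of all. By single list, 44.0% and 51.7% of gained regions held a peak in the uninjured replicates, against 18.99% and 24.04% of lost regions, and 48.3% and 49.5% of gained regions held one in the day 3 replicates, against 79.2% and 84.0% of lost regions. The shares of gained and lost regions did not overlap at either time. At week 2 they did overlap, with 43.6% and 50.4% of gained and 47.2% and 40.7% of lost regions.

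Across the 3 other groups, whose lists were of unequal length, the gained and lost regions differed in the times at which they held peaks. A peak in both day 3 lists and in neither uninjured list was found for 136 gained regions (8.61%) and 5157 lost regions (49.3%), against 15.7% of all merged regions. Of those 5157, 1320 still held a peak in both week 2 lists and 2177 in neither. The reverse pattern, both uninjured lists and neither day 3 list, was found for 128 gained regions (8.11%), 16 lost regions (0.153%) and 0.902% of all. A peak in no list of the other 3 groups was found for 179 gained regions (11.3%) and 664 lost regions (6.35%), against 14.2% of all merged regions. A further 115 gained regions (7.28%) held a peak in all 6 other lists, as did 626 lost regions (5.99%) and 39.3% of all merged regions.

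Regions seen in a single list of 1 time showed lower shares. Of 11314 regions in 1 week 4 list and no day 7 list, 10.1% held a peak in both uninjured and 16.4% in both day 3 lists. Of 25722 regions in 1 day 7 list and no week 4 list, 7.88% held a peak in both uninjured and 35.4% in both day 3 lists. These orders depended on single libraries. Without week 4 replicate 1, 13.6% of gained and 23.1% of lost regions were in both uninjured lists, and without week 4 replicate 2 the shares were 16.6% and 17.98%. Without day 7 replicate 1, 60.2% of gained and 50.7% of lost regions were in both day 3 lists.

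**Figure D2:**
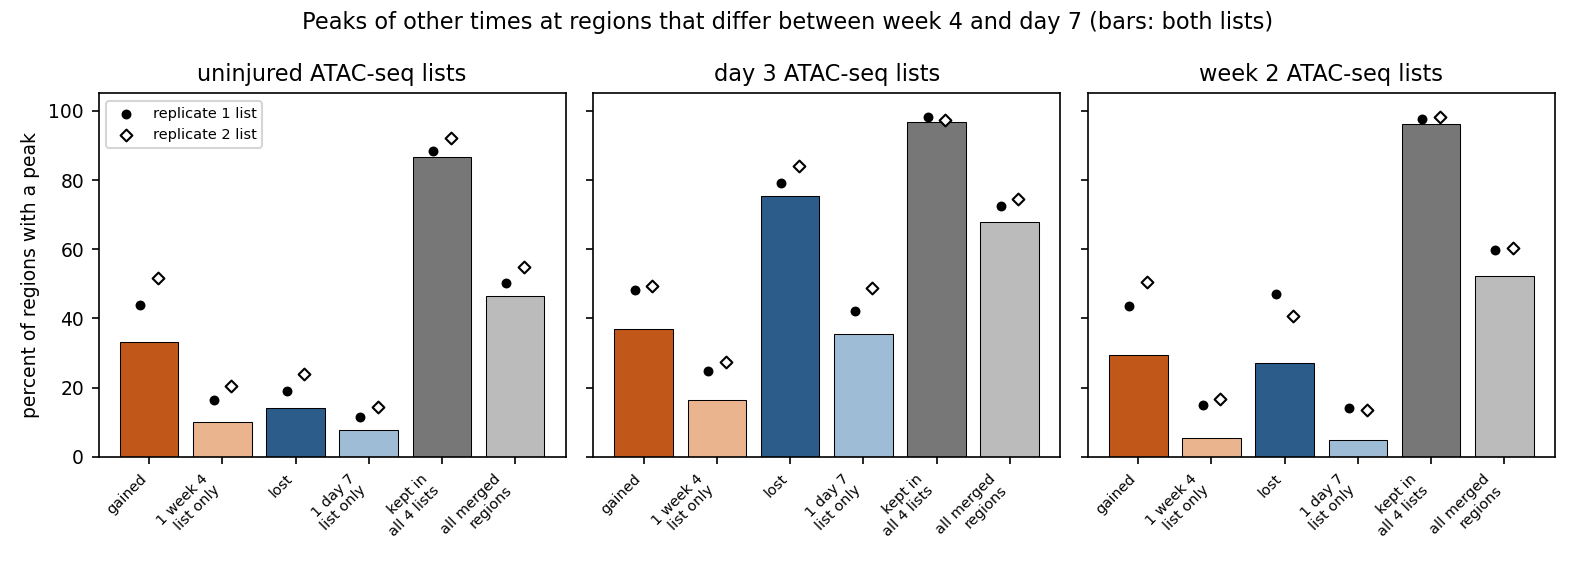
Percent of regions with a peak in the uninjured, day 3 and week 2 lists, for gained regions, regions in 1 week 4 list only, lost regions, regions in 1 day 7 list only, kept regions and all merged regions; bars give both lists and points each list. Gained regions reach 33.3% in uninjured cells and 37.0% at day 3, and lost regions 14.1% and 75.5%.

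Neither kind of region was often at a promoter of the partial start table. A region at a start that the table lacks counts here as away from starts. Within 1 kb of a start lay 42 of 1526 gained regions (2.75%, Wilson 95% interval 2.04 to 3.70), 704 of 10101 lost regions (6.97%, 6.49 to 7.48), 25.8% of kept and 13.3% of all merged regions. These intervals cover counting error only, since neighbouring regions are not independent. Gained regions lay closer to starts than lost ones otherwise, at a median of 17624 against 23116 bases, and 31.1% of gained and 22.5% of lost regions lay 1 to 10 kb away. Gained regions lay within a protein-coding gene and away from its starts in 69.5% of cases, against 45.6% of lost, 41.4% of kept and 49.5% of all regions. Regions seen in 1 week 4 list only had nearly that share, 69.4%, and those in 1 day 7 list only had 52.9%. Per library, 18.8% and 18.4% of week 4 peaks and 15.6% and 16.2% of day 7 peaks lay within 1 kb of a start, values that did not overlap (exact permutation p = 0.333, the smallest possible). The share of regions gained and lost on chromosome X was 0.734% and 6.36%, below the 1.37% and 9.10% of all regions. Lists of the same time differed on X, with 1844 and 1583 peaks at week 4 and 2542 and 1807 at day 7. Whether this lowered the shares was not tested.

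**Figure D3:**
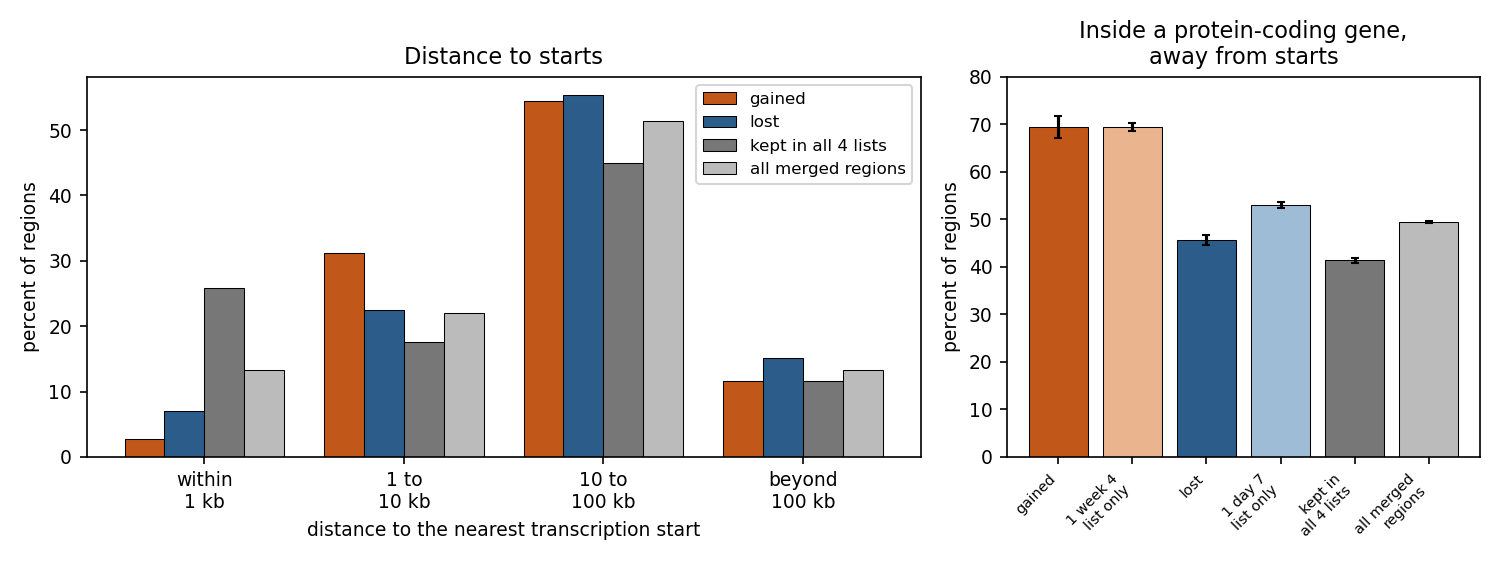
Left, percent of gained, lost, kept and all regions by distance to the nearest start in the RefSeq table; right, percent lying inside a protein-coding gene and more than 1 kb from a start, with Wilson 95% intervals. Of gained, lost, kept and all regions, the gained ones are least often at starts (2.75%) and most often inside genes (69.5%), and regions of 1 week 4 list lie inside genes about as often (69.4%).

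Most of the strongest gained regions also held peaks at the times other than day 7. The first, chr16:56319111-56320148, had a −log10 q of 22.1 and 19.5 in the week 4 lists, lay 114.8 kb from the start of Impg2 and held a peak in all 6 other lists. The regions chr6:87763302-87764348, chr1:186250104-186251254 and chr5:131916847-131917856, the last of them in Auts2, likewise held one in all 6. The region chr15:60967897-60968876, at 17.7 and 13.6, held a peak in 1 other list, week 2 replicate 2. At starts, the Mmp3 region chr9:7445456-7445970 had 8.09 and 8.35 at week 4, no peak at day 7, and a peak in uninjured replicate 2, both day 3 lists and week 2 replicate 2.

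Of the 6 strongest lost regions away from starts, 5 held peaks in both day 3 and both week 2 lists and in neither uninjured list. A region of 351 bases in Camk1d, chr2:5379034-5379384, stood far apart, with a −log10 q of 330 and 412 and a fold enrichment of 60.1 and 67.5 in the day 7 lists. The RNA of Camk1d, a calcium-dependent kinase, rose, with 22.3 and 20.1 CPM at week 4, against 3.30 and 2.59 CPM at day 7 (edgeR adjusted p = 0.0139), and the nearest start was that of Gm36906, 64.0 kb away. The next in rank, chr2:126309672-126311146, had 50.7 and 38.2. The region chr16:96601636-96603454 in Dscam had 44.2 and 52.0, and chr19:15456768-15458633 had 44.2 and 38.2. The exception among the 6, chr14:89609371-89611502, had 46.8 and 58.5, a peak in uninjured replicate 2 and none in week 2 replicate 1. At starts, Ap3b2, an adaptor subunit of neurons, had 43.0 and 27.8. H2-Q6 had 40.4 and 44.4, and as a member of the near-identical class I family its reads may be shared, and its region held a peak in all 6 other lists.

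Genes whose starts were lost had little RNA, at a median mean log2 CPM of 1.22 against 4.07 over all genes, and those that passed the test had all fallen. Of 14968 genes tested in the RNA libraries with edgeR's quasi-likelihood test and a Benjamini-Hochberg adjusted p under 0.05, 134 rose (0.895%) and 228 fell (1.52%) at week 4 against day 7. The lost starts belonged to 472 genes, of which 182 were tested, 0 rose and 11 fell by edgeR, with a median log2 fold change of −1.39. At an unadjusted p under 0.05, 7 of the 182 were higher and 37 lower, and by DESeq2 3 rose and 27 fell. The gained starts belonged to 21 genes, of which 11 were tested by edgeR and 0 rose or fell, with 1 higher at an unadjusted p under 0.05 and 1 that rose by DESeq2. Mmp3 had 61.8 and 120 CPM at week 4, against 30.3 and 112 CPM at day 7 (adjusted p = 0.882), so its RNA overlapped between the times.

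The 11 genes were Ptprc, Laptm5, C1qc, C5ar1, Tgtp2, Slfn2, Ctla2a, Lcp1, Nrros, H2-Aa and Il2rg, which were named after their values were seen. Each of these calls depended on day 7 RNA replicate 2 and did not hold without it. Tgtp2, Slfn2, Ctla2a and H2-Aa have close relatives whose reads may be shared. Ptprc, the leukocyte phosphatase CD45, had 1.86 and 5.51 CPM at week 4, against 45.8 and 46.9 CPM at day 7. C1qc had 12.7 and 21.1 CPM at week 4, against 133 and 274 CPM at day 7. Neither gene's groups overlapped. The Ptprc, C1qc and Laptm5 starts were not lost with equal peak numbers, and their peaks were weak: at the Ptprc start the −log10 q was 2.42 and 3.77 at day 7 with no peak in any of the 8 other lists, and at the C1qc and Laptm5 starts a peak covered the start in day 7 replicate 2 alone, at 3.77 and 8.19.

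Of 20 macrophage and monocyte marker genes tested, 12 fell and 0 rose, and the summed level of the 20 was 192 and 301 CPM at week 4, against 2077 and 3603 CPM at day 7 and 83.4 and 96.8 CPM in uninjured cells. Of the list, Itgam and Cd163 were at 0 in week 4 replicate 1, and Cd163 was at 0 in day 7 replicate 2. Lyz2, lysozyme, had 57.5 and 104.8 CPM at week 4, against 902 and 1585 CPM at day 7, and Cd68 had 9.59 and 6.09 CPM at week 4, against 111.6 and 104.7 CPM at day 7. Of 14 marker genes with a start in the table, 1 and 2 held a peak there in the week 4 lists, against 3 and 9 in the day 7 lists, so day 7 replicate 2 stood apart. In bulk samples fewer cells of a type and less RNA per cell cannot be told apart, and the part of such cells in the lost regions was not tested.

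Of 17 DNA words searched, 15 were in a larger share of the start windows in lost than in kept regions, and the windows also differed in base composition, with a median GC content of 53.7% in lost, 61.0% in kept and 47.0% in windows outside any region. AP-1 words were in 4.55% of the 22 gained, 12.03% of the 507 lost, 5.25% of kept, 10.02% of no-region and 7.81% of all start windows. PU.1 words were in 18.2% of gained, 21.1% of lost, 13.0% of kept, 13.8% of no-region and 13.6% of all windows. RUNX words were in 9.09% of gained, 19.3% of lost, 12.3% of kept, 21.1% of no-region and 16.8% of all windows. The KLF/SP word GGGCGG, typical of broadly used promoters, was in 4.55% of gained, 36.1% of lost, 61.7% of kept, 10.4% of no-region and 35.6% of all windows. With 22 gained windows, a share of 4.55% is a single window.

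Of genes near gained regions only, a somewhat larger share rose than of all genes (0.895%). Of genes near lost regions only, a somewhat larger share fell than of all genes (1.52%). Within 100 kb, 1349 gained regions were nearest to 1100 genes and 8571 lost regions to 6152. Only genes with a start in the partial table could be nearest. Of 495 tested genes near gained regions only, 13 rose (2.63%) and 7 fell (1.41%), with a median log2 fold change of 0.21. Of 2514 near lost regions only, 18 rose (0.716%) and 57 fell (2.27%), with a median of −0.05. The median over all genes was 0.00. Of 203 genes near both kinds, 6 rose (2.96%) and 1 fell (0.493%), with a median of 0.28. Genes near gained regions were also more highly expressed, with a median mean log2 CPM of 5.09, against 4.04 near lost regions and 4.07 over all genes. Without day 7 RNA replicate 2 the 13 became 0 and the 57 became 5, and without week 4 RNA replicate 1 they became 1 and 5.

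The 6 genes of largest rise near gained regions only, among those with a mean log2 CPM of at least 4, were Fbln1, Gstm1, Msx1, Plpp3, Gas1 and Snx18. Fbln1, the matrix glycoprotein fibulin-1, had 2042 and 2237 CPM at week 4, against 490 and 332 CPM at day 7, a log2 fold change of 2.38 ± 0.34 (SE; edgeR adjusted p = 0.00679). Its gained regions chr15:85218361-85219459 and chr15:85247568-85248204 lay 12.3 and 41.6 kb from its start. Gstm1, a glutathione transferase, had 898 and 701 CPM at week 4, against 218 and 122 CPM at day 7, though its close relatives may share reads. Msx1, a homeobox transcription factor, had 104.8 and 83.7 CPM at week 4, against 32.7 and 18.6 CPM at day 7. Gas1, a growth arrest protein and Hedgehog co-receptor, had 313 and 265 CPM at week 4, against 107 and 77.6 CPM at day 7, and its gained region chr13:60206930-60207750 held no peak in the uninjured or day 3 lists and one in both week 2 lists. Plpp3, a lipid phosphate phosphatase, rose by 1.66 ± 0.26, and Snx18, a sorting nexin, by 1.63 ± 0.34. In none of these 6 genes did the week 4 and day 7 libraries overlap, by the rule that chose them, and in each of them both day 7 libraries were also below both uninjured libraries.

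Among genes with a mean log2 CPM of at least 4 near gained regions only, 5 that fell met the rule for naming. Aspn, the matrix proteoglycan asporin, had 1712 and 2010 CPM at week 4, against 4490 and 4715 CPM at day 7 (log2 fold change −1.31 ± 0.22, adjusted p = 0.0123 by edgeR). Picalm, a clathrin assembly protein, had 51.4 and 69.1 CPM at week 4, against 233 and 257 CPM at day 7, beside 2 gained regions. Pld4, a phospholipase D family member of immune cells, had 2.54 and 4.77 CPM at week 4, against 40.1 and 79.5 CPM at day 7. Cdv3 fell by 1.43 and Samhd1, a dNTP hydrolase, by 1.34 on the log2 scale.

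Near lost regions only, the 6 genes of largest fall with a mean log2 CPM of at least 4 were Ctss, C1qtnf3, Cd53, Laptm5, Plac8 and Mpeg1. Ctss, the lysosomal protease cathepsin S, had 14.5 and 25.04 CPM at week 4, against 393 and 539 CPM at day 7 (log2 fold change −4.56 ± 0.55, edgeR adjusted p = 0.00679). Its lost region chr3:95529794-95530444 held a peak in no list but those of day 7, and was not lost with equal peak numbers. C1qtnf3, a secreted protein related to the C1q family, had 28.0 and 96.6 CPM at week 4, against 1093 and 1257 CPM at day 7, and 8.69 and 6.59 CPM in uninjured cells. Its lost region chr15:10927851-10929258, 23.1 kb away, had a peak in 1 of the 2 day 3 lists, both week 2 lists and no uninjured list. Mpeg1, the macrophage pore protein perforin-2, had 5.26 and 12.7 CPM at week 4, against 101 and 125 CPM at day 7. Cd53, a leukocyte tetraspanin, Laptm5 and Plac8 fell by 4.05, 3.90 and 3.66 on the log2 scale.

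By the same floor on expression, 6 genes near lost regions only are named as risen. Hspa12a, a heat shock protein of the Hsp70 family, had 47.4 and 39.4 CPM at week 4, against 7.97 and 6.27 CPM at day 7 (log2 fold change 2.60 ± 0.37, edgeR adjusted p = 0.00679). Tob1, an antiproliferative protein, had 198 and 205 CPM at week 4, against 61.6 and 31.7 CPM at day 7. Fzd1, a Wnt receptor, had 201.1 and 125.6 CPM at week 4, against 49.6 and 41.8 CPM at day 7. Its lost region, 82.3 kb away, had a −log10 q of 1.85 and 1.45 in the day 7 lists, the latter the lowest of its list. Maff, a small Maf factor, rose by 2.18, Uvrag, an autophagy protein, by 1.701, and Fry by 2.38 on the log2 scale. The regions of Fzd1 and Maff were not lost with equal peak numbers. Those of Hspa12a, Tob1 and Fry were, as was 1 of the 2 of Uvrag. Of 53 named genes that passed the RNA test, 43 lost the call without week 4 replicate 1, 29 without week 4 replicate 2, 13 without day 7 replicate 1 and 48 without day 7 replicate 2. Cd68, Cthrc1, Plac8 and Top2a kept it whichever library was left out.

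**Figure D4:**
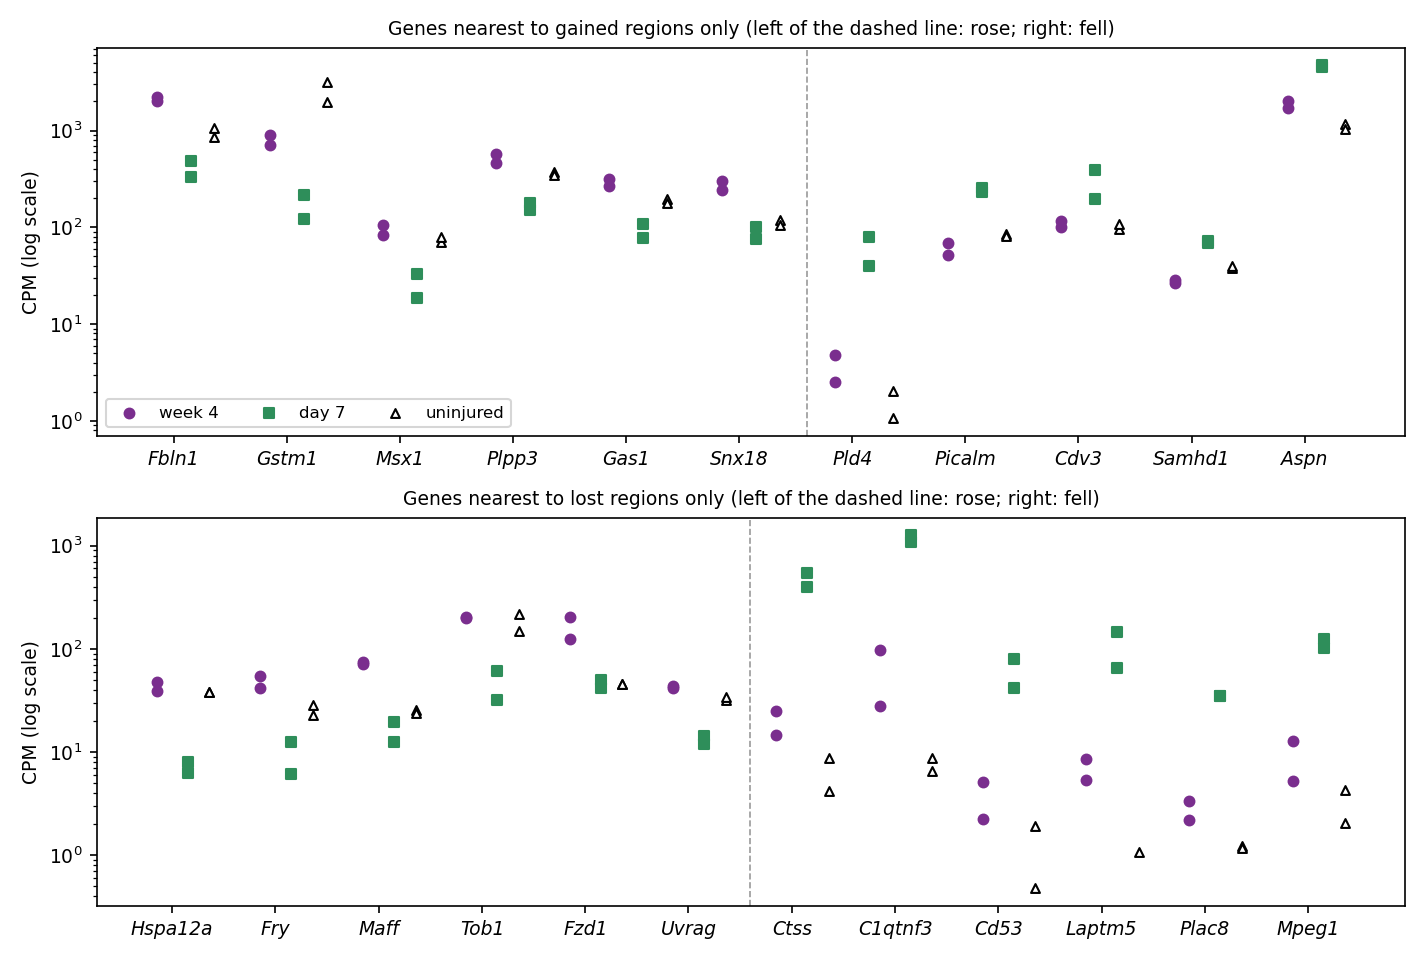
RNA level in CPM (log axis) of the named genes nearest to gained regions only (top) and lost regions only (bottom), with 1 point per library of week 4 (circles), day 7 (squares) and uninjured cells (triangles). Week 4 and day 7 points do not overlap in any gene, by the rule that chose them; an uninjured library of Laptm5 at 0 CPM is not drawn.

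About as many matrix genes had a gained as a lost region, and those whose RNA passed the test had fallen. Over the 11102 tested genes with a start in the table, 6.29% were nearest to a gained region and 24.5% to a lost region, and these shares were not adjusted for the distance between genes. Of the regions of all listed and named genes, 56 of 56 gained but 62 of 165 lost ones were also called with equal peak numbers, so the lost regions counted per gene below are largely those of the full lists. Of 34 genes of fibrillar collagens and matrix glycoproteins, 12 fell and 0 rose (median log2 fold change −0.90). Of the 20 with a start, 5 had a gained and 6 a lost region. Postn, the matricellular protein periostin, had 3206 and 2685 CPM at week 4, against 11770 and 12932 CPM at day 7 (log2 fold change −2.07 ± 0.31, edgeR adjusted p = 0.00834), yet its start lay in a kept peak and it had 0 gained and 0 lost regions. Cthrc1, a collagen triple helix repeat protein of activated fibroblasts, had 255 and 324 CPM at week 4, against 2701 and 2886 CPM at day 7, and no start in the table. Col8a1, a network collagen, had 3 gained and 1 lost region with 1627 and 1212 CPM at week 4, against 1655 and 3197 CPM at day 7 (adjusted p = 0.214). Thbs2, thrombospondin-2, had 3 lost regions with 687 and 902 CPM at week 4, against 1732 and 1540 CPM at day 7 (adjusted p = 0.0776).

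Of the other matrix genes followed, Col1a2, which had 1 lost region, and Spp1, osteopontin, with 1 lost region, both fell, by 1.34 and 1.53 on the log2 scale. Col1a1 had 6046 and 6258 CPM at week 4, against 8748 and 16626 CPM at day 7, Col3a1 had 5804 and 6686 CPM at week 4, against 9674 and 12135 CPM at day 7, and neither passed. Tnc, the early injury protein tenascin-C, had 71.8 and 78.6 CPM at week 4, against 247 and 265 CPM at day 7, with 1 lost region and an adjusted p of 0.0936. Lox, which crosslinks collagen, had 483 and 770 CPM at week 4, against 1589 and 1060 CPM at day 7. Of 25 tested collagen processing genes 1 rose and 1 fell, and of the 18 with a start 0 had a gained and 3 a lost region (16.7%).

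No contractile gene passed the RNA test. Of 24 genes 0 rose and 0 fell by edgeR, while 8 were lower at an unadjusted p under 0.05 and 5 fell by DESeq2, and of the 22 with a start 3 had a gained (13.6%) and 8 a lost region (36.4%). Acta2, the smooth muscle actin of myofibroblasts, had 1 gained region 6.91 kb and 2 lost regions 12.3 and 14.8 kb from its start. Its RNA was 302 and 469 CPM at week 4, against 642 and 950 CPM at day 7 (adjusted p = 0.258). Palld, the actin-associated palladin, had 4 lost regions with 124 and 155 CPM at week 4, against 250.5 and 214.6 CPM at day 7. Myl9, a myosin light chain, was nearest to 3 gained regions, which lay 17.6 to 22.5 kb from its start. Its RNA was 130 and 230 CPM at week 4, against 306 and 360 CPM at day 7.

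More resident fibroblast genes had a gained than a lost region. Of the 22 with a start, 4 had a gained (18.2%) and 2 a lost region (9.09%), and of 34 tested 2 rose and 0 fell. Their summed RNA was 70843 and 64309 CPM at week 4, against 24038 and 20173 CPM at day 7 and 75830 and 81348 CPM in uninjured cells. Gsn, the actin-severing gelsolin, supplied much of this with 31268 and 27444 CPM at week 4, against 2962 and 1971 CPM at day 7 (log2 fold change 3.57 ± 0.56, edgeR adjusted p = 0.0144), and had 0 gained and 0 lost regions. C3, complement C3, had 2 gained regions with 620 and 423 CPM at week 4, against 154 and 285 CPM at day 7 (adjusted p = 0.102). Pdgfra had 1 gained region. Pi16, a marker of adventitial fibroblasts, had 3081 and 2982 CPM at week 4, against 1267 and 651 CPM at day 7, and Tcf21 had 23.5 and 22.5 CPM at week 4, against 12.01 and 9.53 CPM at day 7; neither passed, nor did Dcn.

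Among fibroblast transcription factors and cofactors, 8 of 26 genes with a start had gained and 8 had lost regions (30.8% each). Yap1, a Hippo pathway coactivator, had 3 gained regions with 26.5 and 28.4 CPM at week 4, against 18.8 and 22.1 CPM at day 7. Mrtfb, a coactivator of serum response factor, had 6 lost regions, 3 of them with equal peak numbers, with 29.6 and 32.1 CPM at week 4, against 33.5 and 50.2 CPM at day 7. Of those 6, all held a peak in at least 1 day 3 list and none in an uninjured list. Runx1 had 2 lost regions with 82.4 and 96.7 CPM at week 4, against 79.0 and 84.4 CPM at day 7. Meox1, a homeobox factor of activated fibroblasts, had 561 and 541 CPM at week 4, against 300 and 345 CPM at day 7 (adjusted p = 0.0669). None of these 4 passed, and 1 gene of the 38 tested, Tead1, fell.

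Of 20 Wnt pathway genes with a start, 11 were nearest to a lost region (55.0%), against 24.5% of all tested genes with a start. Only 1 had a gained region (5.00%), against 6.29% of all. Of 30 tested, Fzd1, Frzb and Dkk3 rose and Ccn4 fell. Frzb, a secreted Wnt antagonist, had 1 lost region and 760 and 670 CPM at week 4, against 359 and 434 CPM at day 7. Wnt16 had 4 lost regions but 0 and 1.36 CPM at week 4, against 0 and 1.93 CPM at day 7, and Wnt11 had 1 gained and 3 lost regions with 9.84 and 14.7 CPM at week 4, against 2.51 and 0.181 CPM at day 7. Sfrp2 had 1 lost region and Wif1 1 lost region, neither passing. With equal peak numbers the lost regions of Frzb and Fzd1 did not remain, while those of Sfrp2 and Wif1 did. Of the lost regions of Wnt16, 2 of 4 remained, and of those of Wnt11, 1 of 3. The 4 lost regions of Wnt16 lay 28.9 to 75.5 kb from its start. For TGF-beta and BMP genes, 3 of 22 had gained (13.6%) and 6 lost regions (27.3%). Smad6, an inhibitory Smad, had 3 gained regions, and Ltbp1, which stores latent TGF-beta, and the receptor Bmpr1a had 3 lost regions each, of which 0 and 1 remained with equal peak numbers, and none of these 3 genes passed. Tgfbr2, the type II TGF-beta receptor, had 1 gained region and rose, with 341 and 258 CPM at week 4, against 136 and 107 CPM at day 7 (edgeR adjusted p = 0.0156).

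AP-1 and immediate-early genes had 1 of 22 with a gained (4.55%) and 7 with a lost region (31.8%), while 3 of 28, Jun, Ier2 and Maff, rose. Jun had 3033 and 4062 CPM at week 4, against 1232 and 1292 CPM at day 7, with 1 lost region. Cartilage, tendon and scar matrix genes had 3 of 18 with a gained (16.7%) and 8 with a lost region (44.4%), while Comp and Frzb rose. Comp, the cartilage oligomeric matrix protein of mature scar, had 3844 and 3045 CPM at week 4, against 378 and 702 CPM at day 7 (log2 fold change 2.67 ± 0.54, edgeR adjusted p = 0.0386), and its start was not in the table. Chad had 226 and 426 CPM at week 4, against 7.78 and 39.6 CPM at day 7, Cilp2 had 99.3 and 40.3 CPM at week 4, against 1.28 and 7.42 CPM at day 7, and Fmod had 1303 and 1094 CPM at week 4, against 382 and 777 CPM at day 7, all 3 without gained or lost regions and without a call. Col9a2 had 4 lost regions, 1 of them with equal peak numbers, at low RNA in all 4 libraries.

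Cell cycle genes held promoter peaks at all times. All 28 with a start held a peak there in every one of the 10 lists, 1 had a gained (3.57%) and 4 a lost region (14.3%), and of 35 tested 8 fell and 0 rose. Mki67, a proliferation marker, had 3 lost regions and 0.495 and 0.0974 CPM at week 4, against 24.7 and 50.2 CPM at day 7 (adjusted p = 0.0895). Top2a, a topoisomerase of dividing cells, had 2.85 and 1.997 CPM at week 4, against 53.9 and 58.4 CPM at day 7, and fell without a gained or lost region. Interferon-stimulated genes had 1 of 24 with a gained (4.17%) and 4 with a lost region (16.7%), and of 32 tested 7 fell and 0 rose. Irf7, the interferon response regulator, and Rsad2, the antiviral viperin, had 1 lost region each and fell.

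Markers of other cells were counted in the same way, against 6.29% of all tested genes with a gained and 24.5% with a lost region. Endothelial markers had 0 of 10 with a gained and 7 with a lost region (70.0%), of 17 tested 3 fell and 0 rose, and they summed to 885 and 861 CPM at week 4, against 1063 and 1421 CPM at day 7. Erg had 4 lost regions with 18.5 and 17.3 CPM at week 4, against 25.2 and 45.9 CPM at day 7. A peak at the start was found for 7 and 7 of the 10 endothelial genes at week 4, against 8 and 9 at day 7. Pericyte and smooth muscle markers had 0 of 8 with a gained and 4 with a lost region, Rgs5 having 3, and summed to 799 and 807 CPM at week 4, against 860 and 1292 CPM at day 7. Macrophage markers had 0 of 14 with a gained and 5 with a lost region (35.7%). Cardiomyocyte markers had 1 of 16 with a gained (6.25%) and 7 with a lost region (43.8%). Their summed levels were 113 and 223 CPM at week 4, against 141 and 176 CPM at day 7. The part of these cells in the regions was not tested. Among lists with few starts, lymphocyte markers had 1 of 4 genes with a gained and 1 with a lost region, Schwann markers 0 and 1 of 2, epicardial markers 1 and 3 of 5, and erythroid markers 0 and 0 of 5, with no RNA call by edgeR in any of them.

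**Figure D5:**
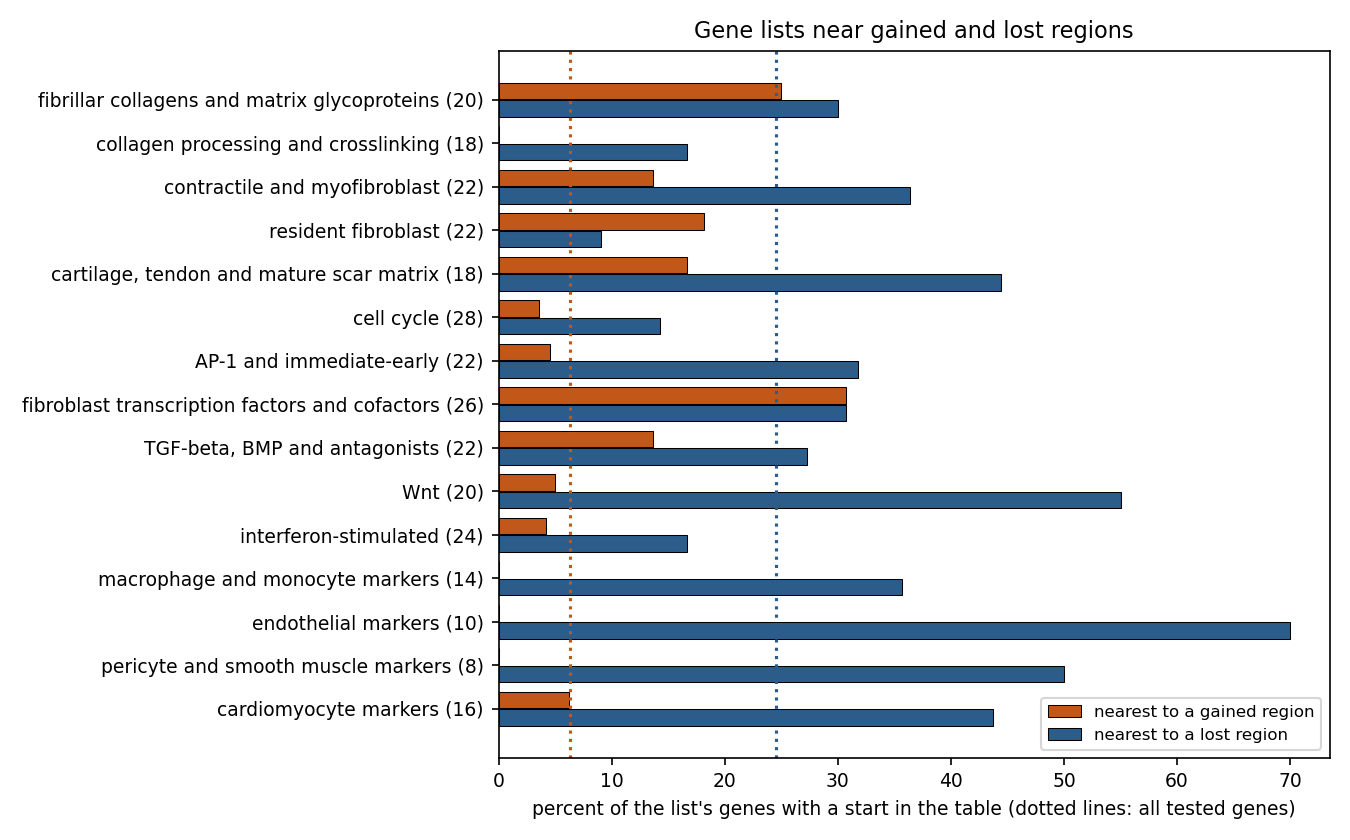
Percent of each list's tested genes with a start in the table (number in brackets) that were nearest to a gained region (upper bar) or a lost region (lower bar) within 100 kb; dotted lines give all tested genes, 6.29% and 24.5%. Of these lists, which have at least 8 such genes, fibroblast transcription factors (30.8%) and matrix genes (5 of 20) have the highest shares with a gained region, and endothelial markers (70.0%) and Wnt genes (55.0%) with a lost region.

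Lists with 0 genes that rose by edgeR were also counted at an unadjusted p under 0.05, where 1 matrix gene, 4 transcription factors, 1 cardiomyocyte and 1 epicardial marker were higher, and 0 of the contractile, cell cycle, interferon, macrophage, endothelial and pericyte lists. By DESeq2, 4 transcription factors, 1 cardiomyocyte and 1 epicardial marker rose. For lists with 0 that fell, the unadjusted counts of lower genes were 1 resident fibroblast, 3 scar matrix, 1 AP-1, 1 TGF-beta and 1 pericyte gene, 2 epicardial markers and 0 cardiomyocyte markers, and by DESeq2 1 resident fibroblast, 3 scar matrix, 1 TGF-beta and 1 epicardial gene fell. The lymphocyte, Schwann and erythroid lists had 0 by either count.

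Among genes tested in RNA, several that were nearest to many regions were singled out after their values were seen, leaving aside the untested 4931440J10Rik with 7 gained and 5430403N17Rik with 10 lost regions. Clic4, a chloride intracellular channel protein, was nearest to 4 gained and 0 lost regions and rose, with 893 and 809 CPM at week 4, against 377 and 304 CPM at day 7 (log2 fold change 1.32 ± 0.20, edgeR adjusted p = 0.00774). Cmip was nearest to 5 gained and 3 lost regions, with 84.2 and 117 CPM at week 4, against 54.4 and 50.8 CPM at day 7 (adjusted p = 0.217). Rtn4, the reticulon Nogo, was nearest to 4 gained regions, with 207 and 84.3 CPM at week 4, against 86.0 and 53.1 CPM at day 7. Bach2, a lymphoid transcription repressor, was nearest to 8 lost regions with 4.95 and 5.31 CPM at week 4, against 8.02 and 10.9 CPM at day 7. Sgms1, a sphingomyelin synthase, and Dip2b were nearest to 7 lost regions each without a call.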

How the data were processed

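The authors deposited peak lists of ATAC-seq libraries and a table of RNA-seq values for sorted cells, in 2 libraries a group of each kind. Per the file headers and values, each peak carried a deposited score, a fold enrichment (a linear ratio), and a −log10 p and −log10 q value, and peaks were listed per library. The RNA values were deposited expected counts per gene. The submitters' processing notes name Trim Galore 0.6, FastQC, STAR 2.5.3a, Bowtie2 2.3, MACS2 and DESeq2 and the builds mm10 and GRCm38. Their settings, duplicate removal and transposase offsets were not stated there.

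Peaks overlapping by 1 base were merged, and regions were assigned to the nearest start in a RefSeq promoter table (GRCm38.p6) within 100 kb. That table is partial, with 11102 of the tested genes matched and no starts on chromosome 18. Expected counts were rounded and tested with edgeR 4.0.16 (quasi-likelihood, TMM, all 10 libraries, low counts filtered) in R 4.3.3, with DESeq2 1.42.0 as an alternative, and checked on simulated data. CPM are TMM-scaled. Named regions were those of best rank in both lists. Named genes were up to 6 risen and 6 fallen of largest fold change near only gained or only lost regions, with a mean log2 CPM of at least 4, no overlap of week 4 and day 7 libraries and no predicted, mitochondrial or ribosomal protein genes, set list members and the up to 4 members per list with most regions; other names were chosen after their values were seen. The members, the 19 gene lists and the 17 motifs were chosen with earlier results of these data known. Peak scores were compared only within a list.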

Additional observations from a re-analysis of the deposited data

How the results depend on the processing

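Values are for gained and lost regions, in the order gained then lost where both are given. Lost regions outnumbered gained ones under every alternative run. Equal peak numbers gave 3545 and 5009, a −log10 q of 5 or more in all lists 755 gained, and a −log10 q of 5 or more against no peak at all 182 and 3703. Leaving out 1 library in turn gave 2264 to 7375 gained and 14806 to 25496 lost. The within-B comparison (without day 7 replicate 1) gave 4385 and 21132.

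The percent within 1 kb of a start was, for gained regions, 4.55 with −log10 q of 5 against no peak, 5.598 with windows at the summits and 7.67 within 2.5 kb, and 2.37 to 3.22 with a library left out. For lost regions it was 8.38 with equal numbers, 8.13 with −log10 q of 5, 8.70 against no peak, 10.7 within 2.5 kb, and 5.41 to 6.99 with a library left out.

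The percent of gained regions in both uninjured lists was 43.6 with equal numbers, 68.6 with −log10 q of 5, 57.1 against no peak, 40.8 with overlap of at least 50%, 44.1 with summit windows, 62.4 in at least 1 list and 13.6 to 52.7 with a library left out. In both day 3 lists it was 51.3, 66.4, 48.4, 44.1, 52.2, 60.7 and 19.7 to 60.2 under the same settings, and in both week 2 lists 42.8, 71.5, 51.6, 38.3, 44.9, 64.7 and 9.98 to 51.4. For lost regions the same settings gave 16.9, 28.0, 17.5, 15.7, 22.1, 28.9 and 8.42 to 23.1 in uninjured lists, 87.1, 89.4, 89.3, 77.2, 77.3, 87.8 and 50.7 to 79.5 in day 3 lists, and 40.8, 60.8, 45.7, 33.3, 35.3, 60.7 and 14.8 to 38.8 in week 2 lists. The cause of these shifts was not tested.

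Of genes near gained regions only, equal numbers gave 25 that rose and 13 that fell, −log10 q of 5 gave 7 and 1, against no peak 4 and 0, summit windows 4 that fell, all starts within 50 kb 12 that fell, DESeq2 35 and 21 and no count filter 50 and 14, with 0 to 23 and 0 to 15 when a library was left out. Of genes near lost regions only, equal numbers gave 8 and 25, −log10 q of 5 gave 37 that fell, against no peak 9 and 18, a 20 kb limit 8 that rose, all starts within 50 kb 30 that rose, the nearest tested start (chosen after seeing the data) 28 that rose, DESeq2 92 and 154 and no filter 100 and 126, with 0 to 39 and 5 to 81 when a library was left out. Over all genes DESeq2 called 594 that rose and 714 that fell, no filter 720 and 586, and leaving out a library 5 to 262 and 27 to 215, where a lone library is assumed to vary like the other groups.

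Replicate numbers did not pair the RNA libraries (correlation of deviations 0.0254 over 14968 genes). They did follow Y-linked RNA at week 4 and day 7, which was near 0 CPM in replicate 1 only. At these times a replicate block and a block by Y-linked RNA cannot be told apart. The replicate block gave 183 that rose and 247 that fell over all genes, and 29 that rose near lost regions only. It ended the calls of Comp, Frzb, Laptm5 and Tgtp2 among the named genes. With a library left out, the log2 fold changes of 3 uncalled genes changed sign: Wif1 ranged over −2.85 to 8.08, Mmp3 over −0.30 to 1.58 (−0.18 without week 4 RNA replicate 2) and Bmpr1a over −0.36 to 0.10. The planned motif comparison at summits was not run, as no genome was used here. Peak calls depend on depth, which is unknown for these lists.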
